A study of Homo sapiens with 6 samples.

Results

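The polyploid giant cancer cells (PGCCs) of the ovarian cancer line Hey were compared with those of the line SKOV3, gene by gene. The comparison held 16146 of the 59008 gene symbols of the deposited table, namely those with an abundance of at least 1 transcript per 1000000 (TPM) in the Hey PGCC library, the SKOV3 PGCC library or both. TPM is the abundance of a gene's transcripts relative to all transcripts of the library, corrected for transcript length. The difference of a gene is log2(TPM + 1) in Hey minus log2(TPM + 1) in SKOV3, so positive values are higher in Hey and negative values higher in SKOV3. A difference of at least 1 in size is a 2-fold difference on this scale, which understates the folds of weakly expressed genes. Both PGCC libraries reached 1 TPM for 12273 of these genes, Hey alone for 1657 and SKOV3 alone for 2216. By the GENCODE annotation 12655 were protein-coding genes, 1002 long noncoding RNA genes and 647 genes of other types, and 1842 symbols had no match.

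RNA sequencing gave 6 libraries, 1 each of the untreated parental cells, the PGCCs and the daughter cells of either line. PGCCs of both lines were made with 500 nM paclitaxel for 16 h and then kept in drug-free medium for 3 days by the treatment labels, although the title of the SKOV3 PGCC library gives day 7. The methods of the study name 1 recovery time for the sequenced PGCCs, the one of the treatment labels. The daughter libraries, each from 1 clone, were taken after the same drug and 30 days of recovery. Hey was grown in MEM Eagle and SKOV3 in RPMI-1640, both with fetal bovine serum, so the line and its medium, and the time should the title hold, cannot be told apart. No condition was repeated, so the values carry no error and no test was made, and every statement below describes these libraries. RNA was taken from bulk cultures, in which fewer cells of a kind and less RNA per cell cannot be told apart.

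PGCCs are large cells with several genomes in 1 cell body that form when cancer cells survive drugs or other stress. Paclitaxel stabilizes microtubules, so chromosomes cannot be pulled apart, and cells that leave mitosis without dividing keep all of their DNA. Such cells can stay arrested and secrete inflammatory proteins, and some bud small daughter cells that divide again. A central switch of secreted inflammatory proteins is NF-kB, a transcription factor held in the cytoplasm by inhibitor proteins until signals such as interleukin 1 or tumour necrosis factor release it, whereupon it switches on cytokine genes and its own inhibitors. Damage to DNA or failed mitosis can also raise a program of genes for arrest, repair and cell death.

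The columns summed to between 911825 and 920497 TPM, and 27534 symbols were listed at 0 in all 6 libraries. Transcripts of the mitochondrial genome took 2.64% of the TPM of Hey parental cells and 12.3% of Hey PGCCs, against 9.17% and 7.37% in SKOV3. Defining markers of leukocytes were near 0 in both PGCC libraries, with 13 of 14 under 1 TPM, as were 5 of 9 endothelial and 7 of 12 fibroblast markers. The summed TPM of the leukocyte markers ran from 46.5 to 71.3 in the Hey libraries and from 17.2 to 20.8 in the SKOV3 libraries, and PTPRC, CD3E and MS4A1 were under 1 TPM in all 6. The endothelial sums ran from 60.3 to 71.6 in Hey and from 5.32 to 16.3 in SKOV3, and the fibroblast sums from 214 to 269.7 and from 14.1 to 29.6. Among the exceptions were CD68 (69.3 TPM in Hey and 20.03 in SKOV3 PGCCs), CDH5 (35.5 and 0.035), PDPN (198 and 0) and ACTA2 (54.7 and 1.38), whose parental libraries differed in the same direction. What part such cells had in any result was not tested. Both lines are labelled ovarian cancer, and PAX8, a transcription factor of the Mullerian lineage, was present in all 6 libraries, at 94.4, 54.8 and 54.7 TPM in Hey and 65.6, 136 and 112 TPM in SKOV3, in the order parental cells, PGCCs and daughter cells.

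The promoters of CXCL1, IL6, CXCL8 and SERPINB2 are given first, because these genes were among those whose line difference was absent in parental cells and large in PGCCs. They run from 250 bases before to 50 bases after the RefSeq start on GRCh38.p14, written 5′ to 3′ on the strand of the gene. Capitals mark GGGA, any 2 bases and then TTCC (an NF-kB motif) or TGANTCA (an AP-1 motif, bound by the FOS and JUN proteins), searched on both strands. CXCL1 and IL6 are shown for the NF-kB letters and CXCL8 and SERPINB2 for the AP-1 letters.
CXCL1 (chr4:73869143-73869442, plus strand): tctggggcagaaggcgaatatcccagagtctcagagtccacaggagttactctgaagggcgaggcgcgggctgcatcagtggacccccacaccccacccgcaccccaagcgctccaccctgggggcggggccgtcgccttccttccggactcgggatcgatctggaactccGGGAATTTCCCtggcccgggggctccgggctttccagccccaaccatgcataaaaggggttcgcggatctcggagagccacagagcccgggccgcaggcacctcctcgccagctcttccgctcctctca
IL6 (chr7:22726950-22727249, plus strand): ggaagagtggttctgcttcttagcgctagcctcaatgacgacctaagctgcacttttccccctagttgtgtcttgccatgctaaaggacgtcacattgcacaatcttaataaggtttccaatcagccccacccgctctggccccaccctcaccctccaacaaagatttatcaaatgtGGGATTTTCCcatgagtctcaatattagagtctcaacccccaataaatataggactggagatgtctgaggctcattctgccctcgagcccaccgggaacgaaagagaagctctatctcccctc
CXCL8 (chr4:73740319-73740618, plus strand): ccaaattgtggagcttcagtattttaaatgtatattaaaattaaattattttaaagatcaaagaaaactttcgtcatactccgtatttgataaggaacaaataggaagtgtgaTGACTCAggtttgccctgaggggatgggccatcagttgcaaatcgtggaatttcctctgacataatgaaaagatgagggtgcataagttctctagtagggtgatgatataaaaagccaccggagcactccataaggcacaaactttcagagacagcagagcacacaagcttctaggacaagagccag
SERPINB2 (chr18:63887455-63887754, plus strand): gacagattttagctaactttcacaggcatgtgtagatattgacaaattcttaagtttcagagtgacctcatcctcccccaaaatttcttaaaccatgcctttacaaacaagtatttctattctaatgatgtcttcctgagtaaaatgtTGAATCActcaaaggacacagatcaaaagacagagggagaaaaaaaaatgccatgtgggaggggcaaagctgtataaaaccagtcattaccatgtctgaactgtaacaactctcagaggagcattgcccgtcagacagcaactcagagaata
In CXCL1 the letters of the motif and of its reverse complement overlap, so 1 site was found on both strands, and the same arrangement stood in the windows of CXCL2 and CXCL3. The NF-kB letters were in 1.63% of the 27305 promoters of the table and in 1.55% of the 10242 found for protein-coding genes of the comparison. Of the 397 protein-coding genes whose higher level in Hey appeared in PGCCs, 304 had a promoter, and 13 of these (4.28%) held the NF-kB letters and 31 (10.2%) the AP-1 letters, which were in 7.76% of all promoters and in 4.68% of those of the comparison. Among genes whose higher level in SKOV3 appeared in PGCCs, the shares of 930 promoters were 1.29% and 3.12%. Of 18 cytokine and chemokine genes with a promoter, 5 held the NF-kB letters and 4 the AP-1 letters. Of the 12 with a promoter among the 13 higher in Hey PGCCs, 4 held each. The median GC content of the promoters was 61.7% for the Hey differences that appeared and 67.7% for those of SKOV3. It was 65.3% for protein-coding genes of the comparison and 50.3% for the 18 cytokine and chemokine genes. The part of GC content in the shares was not tested. The windows of CSF2, IL1B, CCL20, SOD2, BIRC3 and ICAM1 held neither, which says only that these letters are not in those windows. The matches are a description of the sequence, not binding sites.

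Between the PGCCs, 2444 genes (15.1%) were at least 2-fold higher in Hey and 4837 (30%) at least 2-fold higher in SKOV3, 7281 in total. Among the same 16146 genes the parental cells differed at 1756 (10.9%) and 3753 (23.2%) genes and the daughter cells at 1877 (11.6%) and 4399 (27.2%), so in all 3 states more genes were higher in SKOV3. The median difference of all genes was -0.36 in PGCCs, -0.27 in parental cells and -0.33 in daughter cells. Dividing each library by its median ratio to the others moved the median in PGCCs to -0.06 and quantile normalization to -0.0016, and the share of the differing genes that were higher in Hey went from 33.6% to 46.5% and 49.0%. The balance between the lines therefore rests on the scaling, and list medians are given beside the median of all genes. Near the threshold, 743 genes had a difference of 0.9 to 1 in size and 773 one of 1 to 1.1.

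Differences already present in the parental cells, at least 2-fold in both states and in the same direction, were found for 1088 genes higher in Hey (6.74%) and 2487 higher in SKOV3 (15.4%). Differences that appeared in PGCCs, at least 2-fold there, under 2-fold in parental cells and moved by at least 1, numbered 821 genes higher in Hey (5.08%) and 1345 higher in SKOV3 (8.33%). A further 455 (2.82%) and 955 (5.91%) genes crossed the threshold with a smaller move. Direction turned over at 80 genes that became higher in Hey (0.495%) and 50 that became higher in SKOV3 (0.31%), and 1804 differences of the parental cells (11.2%) were under 2-fold in PGCCs. Present differences thus made up 49.1% of the 7281, and those that appeared 29.7%. Across the 16146 genes the differences in PGCCs and in parental cells, which share no library, correlated at 0.721 (Pearson) and 0.630 (Spearman). Genes are not independent replicates, and all libraries of a line share its genome.

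**Figure D1:**
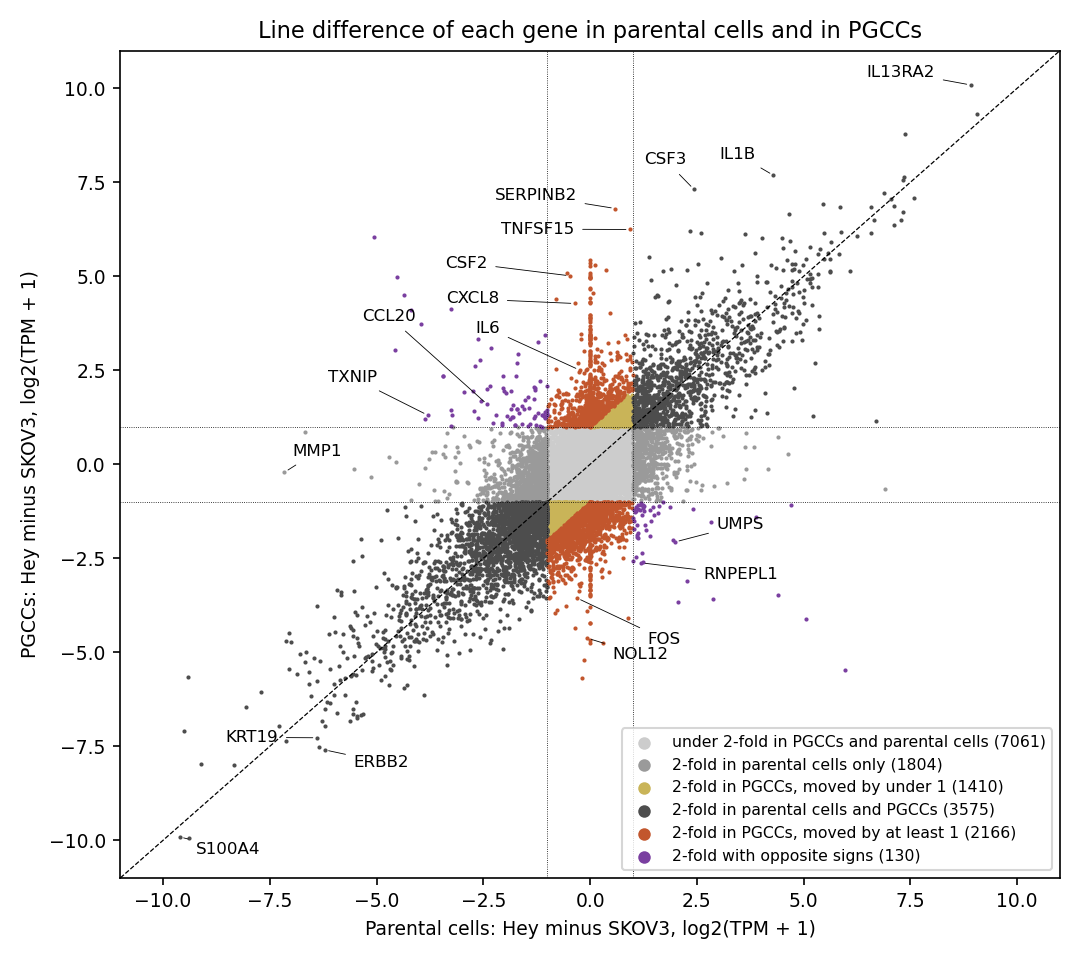
Difference of log2(TPM + 1), Hey minus SKOV3, of each of the 16146 genes in parental cells (horizontal) and in PGCCs (vertical), with 1 point per gene and colours for the classes. Dotted lines mark 2-fold differences and the dashed line equal differences, and CXCL8, CSF2 and SERPINB2 lie above 4 with parental differences between -0.47 and 0.59.

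The daughter cells, whose libraries had no part in the choice of the classes, kept the present differences more often than those that appeared. Present differences were chosen as seen in both parental cells and PGCCs, and the others as seen in PGCCs only, so the choice itself favours the former. The former were also larger in PGCCs, with medians of 2.17 (Hey) and -1.96 (SKOV3) against 1.56 and -1.64. Of the present differences 717 of 1088 higher in Hey (65.9%) and 1762 of 2487 higher in SKOV3 (70.8%) were again at least 2-fold in the same direction in daughter cells. Of those that appeared, 135 of 821 (16.4%) and 323 of 1345 (24.01%) were, where 11.6% and 27.2% of all genes were higher in Hey and SKOV3 daughter cells. In the opposite direction, 90 of the 821 (10.96%) were at least 2-fold higher in SKOV3 daughter cells, beside the 27.2%, and 62 of the 1345 (4.61%) in Hey daughter cells, beside the 11.6%. Across all genes the PGCC difference correlated with the daughter difference at 0.600 (Pearson) and the parental difference did at 0.682.

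Genes with the largest differences in PGCCs were already different in the parental cells. IL13RA2 (chrX:115003975-115019977 on GRCh38, as for the positions that follow), a decoy receptor for interleukin 13, stood at 586 TPM in the parental, 1127 in the PGCC and 571 in the daughter library of Hey, and at 0.214, 0.035 and 0.765 TPM in the same order in SKOV3. It was the gene with the largest difference in PGCCs of the present class, 10.09 against 8.92 in parental cells. ESM1, a secreted proteoglycan of endothelium, stood at 1732 TPM in Hey PGCCs and 2.90 in SKOV3 PGCCs, with 1204 and 6.28 in parental cells. PDPN, the membrane glycoprotein podoplanin, was at 198 and 0 TPM in PGCCs, MMP14, a membrane-bound matrix protease, at 299 and 0.599, and MME, the surface peptidase CD10, at 507 and 2.41, and their differences were 7.35, 7.32 and 6.89 in the parental cells. UQCRH, a subunit of respiratory complex III, was at 635 TPM in Hey PGCCs and listed at 0 in SKOV3 PGCCs, and its near-identical copy UQCRHL was under 1 TPM in all 6 libraries.

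On the SKOV3 side, ERBB2 (chr17:39687914-39730426), the receptor tyrosine kinase HER2, which SKOV3 is known to carry in amplified form, stood at 14.1, 8.20 and 13.7 TPM in Hey and 1127, 1778 and 1173 TPM in SKOV3, in the order parental cells, PGCCs and daughter cells. Its difference was -6.22 in parental cells and -7.60 in PGCCs. PPP1R1B, a phosphatase inhibitor encoded near it at chr17:39626740-39636626, was at 987 TPM in SKOV3 PGCCs and listed at 0 in the 3 Hey libraries. S100A4, a calcium-binding protein of motile cells, was at 4816 TPM in SKOV3 PGCCs and 4.005 in Hey PGCCs, against the direction of most mesenchymal genes. FOLR1, the folate receptor used as a target in ovarian cancer, was at 132 and 0.058 TPM, MAL, a lipid raft protein, at 183 and 0, KRT19 at 711 and 3.60, DHRS2, a reductase, at 755 and 4.49, and PLPP2, a lipid phosphatase, at 141 and 0.246. All of these were also higher in SKOV3 in parental and in daughter cells, from -5.63 to -9.61 in the former.

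Epithelial genes were higher in SKOV3 PGCCs at 22 of 27 measured members and higher in Hey at 2, where 30% and 15.1% of all genes were, and their median difference was -3.28 against -0.36 for all genes. Of the 22, 19 were present in parental cells and 3 appeared in PGCCs. CDH1, the adhesion protein E-cadherin, was at 0 TPM in Hey and 4.35 in SKOV3 PGCCs, EPCAM at 1.43 and 43.6, ELF3, an epithelial transcription factor, at 0.318 and 149, and KRT5 at 0 and 39.4. The simple keratins KRT7, KRT8 and KRT18 were abundant in all libraries, with 312, 345 and 374 TPM in Hey PGCCs and 929.6, 1052 and 420.3 in SKOV3 PGCCs, so these were abundant in Hey while many epithelial genes were near 0. KRT7 and KRT8 were among the 3 that appeared, and their differences of -1.57 and -1.61 were -0.86 and -0.92 with the GC trend described further on removed. CLDN1, a tight junction protein, was higher in Hey, at 353 TPM against 44.9.

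Mesenchymal genes ran the other way, with 13 of 23 higher in Hey PGCCs and 3 in SKOV3, beside the same 15.1% and 30%, and a median of 1.31, and all 16 were present in parental cells. FN1, the matrix protein fibronectin, stood at 1568 TPM in Hey PGCCs and 14.5 in SKOV3 PGCCs, and its difference widened from 4.65 in parental cells to 6.66. TNC, tenascin C, was at 125 and 0.213 TPM, ZEB2, a repressor of epithelial genes, at 28.9 and 1.11, and LOX, which cross-links collagen, at 47.8 and 3.96. S100A4 and THBS1, thrombospondin 1, were higher in SKOV3. Among ovarian cancer and lineage markers 11 of 16 were higher in SKOV3 PGCCs, beside 30% of all genes, and 1, MME, was higher in Hey, with 9 and 1 of them present in parental cells. MECOM, a transcription factor often gained in ovarian cancer, was at 29.1 TPM in Hey and 179 in SKOV3 PGCCs, and LCN2, lipocalin 2, at 0.682 and 62.3.

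Genes of the DNA damage and arrest program had the highest median in PGCCs of the lists that are not markers of other cell types, 2.53, with 19 of 24 members at least 2-fold higher in Hey and 0 higher in SKOV3, where 15.1% and 30% of all genes were. In parental cells 19 and 0 differed, where 10.9% and 23.2% of all genes did, and in daughter cells 21 and 0, where 11.6% and 27.2% did. The line difference in this list was thus there in each state. Of the 19 higher in Hey PGCCs, 16 were present and 3 appeared. CDKN1A, the cell cycle inhibitor p21, was at 148 and 480.0 TPM in parental cells and PGCCs of Hey and at 4.76 and 6.84 in those of SKOV3. MDM2, a ubiquitin ligase, was at 121 and 672 in Hey and 36.3 and 17.96 in SKOV3, in the same order, so its difference widened from 1.71 to 5.15. GDF15, a stress cytokine, widened from 1.56 to 4.50, with 129 TPM in Hey PGCCs and 4.74 in SKOV3 PGCCs.

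From parental cells to PGCCs 10 of these 24 genes rose in Hey, where 9.41% of all genes did, and 2 rose in SKOV3, near the 10.5% of all genes. BTG2, which slows cell division, appeared with 5.16 and 36.8 TPM in Hey and 4.73 and 4.10 in SKOV3, GADD45A, a damage-induced gene, with 173 and 565 against 109 and 74.5, and TP53I3, an oxidoreductase, with 12.3 and 40.9 against 10.01 and 13.1. BAX, XPC and TNFRSF10B, with parental differences of 1.86, 1.27 and 1.63, ended just under 2-fold at 0.95, 0.99 and 0.98. With the same trend removed, all 24 were at least 2-fold higher in Hey PGCCs. CDKN2A, which encodes the inhibitors p16 and p14ARF, was under 1 TPM in all 6 libraries.

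Cytokine and chemokine genes were the list with the most differences higher in Hey that appeared in PGCCs. In PGCCs 13 of 23 measured members were at least 2-fold higher in Hey and 5 higher in SKOV3, where 15.1% and 30% of all genes were. In parental cells 5 and 8 were, beside 10.9% and 23.2% of all genes. In daughter cells 4 and 13 were, beside 11.6% and 27.2%. The median of the list was 1.89 in PGCCs, -0.47 in parental cells and -1.15 in daughter cells. From parental cells to PGCCs 18 of the 23 rose in Hey, where 9.41% of all genes did, and 1, IL6, rose in SKOV3, where 10.5% did. The change was larger in Hey than in SKOV3 for all 23. IL11, IL24, IL33, IL36G, CSF2, CSF3 and TNFSF15 entered the comparison through the Hey PGCC library alone. CCL5, TNFSF10, CXCL16 and CCL28 entered it through the SKOV3 PGCC library alone. The direction of such genes is in part set by the filter. Of the 13 higher in Hey, 7 appeared in PGCCs, 5 were present in parental cells and 1 turned over. The list was written with earlier results of these data known, so its counts are a description.

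CXCL8 (chr4:73740519-73743716), the neutrophil chemokine interleukin 8, stood at 149 TPM in the parental, 3488 in the PGCC and 49.8 in the daughter library of Hey, and at 191, 179 and 663 TPM in the same order in SKOV3. The parental lines were close, at a difference of -0.35, the PGCCs differed by 4.28, and in daughter cells the difference was -3.71, that is, higher in SKOV3. CXCL1, CXCL2 and CXCL3 are related neutrophil chemokines encoded beside it on chromosome 4. CXCL1 was at 104 and 705 TPM in parental cells and PGCCs of Hey and at 109 and 121 in SKOV3, CXCL2 at 79.6 and 184 against 57.7 and 48.7, and CXCL3 at 17.6 and 132 against 7.97 and 8.87. All were higher in SKOV3 in daughter cells, with differences of -1.59, -3.09 and -1.15. CCL20, which draws lymphocytes and dendritic cells, turned over, at 1.45, 49.8 and 3.53 TPM in Hey and 11.99, 15.9 and 73.1 TPM in SKOV3 in the order parental cells, PGCCs and daughter cells, and its PGCC difference of 1.59 was 0.97 once the GC trend was removed.

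Transcripts of CSF2 and TNFSF15 were close to absent outside Hey PGCCs. CSF2 (chr5:132073789-132076170), the granulocyte-macrophage factor GM-CSF, stood at 0.481 TPM in the parental, 59.4 in the PGCC and 0.548 in the daughter library of Hey, and at 1.05, 0.870 and 0 TPM in the same order in SKOV3. CSF3, the granulocyte factor, was at 4.39, 158 and 13.3 TPM in the Hey libraries and listed at 0 in the 3 SKOV3 libraries, so its difference, 2.43 in parental cells, reached 7.32 in PGCCs. TNFSF15, a tumour necrosis factor relative, was at 74.9 TPM in Hey PGCCs, under 1 TPM in the other Hey libraries and 0 in SKOV3 PGCCs. CSF1, the macrophage factor, was higher in SKOV3, with 25.6 TPM in Hey and 59.1 in SKOV3 PGCCs and a parental difference of -1.82.

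IL6 (chr7:22725884-22732002), an interleukin that signals through STAT3, stood at 8.74 TPM in the parental, 168 in the PGCC and 8.69 in the daughter library of Hey, and at 10.5, 28.8 and 19.2 TPM in the same order in SKOV3. It went up in PGCCs of both lines, by 4.12 in Hey and 1.37 in SKOV3, and the PGCC difference of 2.51 compares with -0.24 in parental cells. IL11, of the same family, was at 6.93 and 0.721 TPM in Hey and SKOV3 PGCCs, and LIF, also of this family, at 24.3 and 33.7. IL1B and IL1A, the beta and alpha forms of interleukin 1, were already higher in Hey parental cells. IL1B was at 284 and 2105 TPM in parental cells and PGCCs of Hey and at 13.5 and 9.23 in SKOV3, so that its difference widened from 4.30 to 7.69, while IL1A was at 221 and 778 against 99.3 and 77.6. TNF, tumour necrosis factor, stayed higher in SKOV3, at 36.9 TPM against 6.84 in PGCCs, as did TNFSF10, CXCL16 and CCL28.

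**Figure D2:**
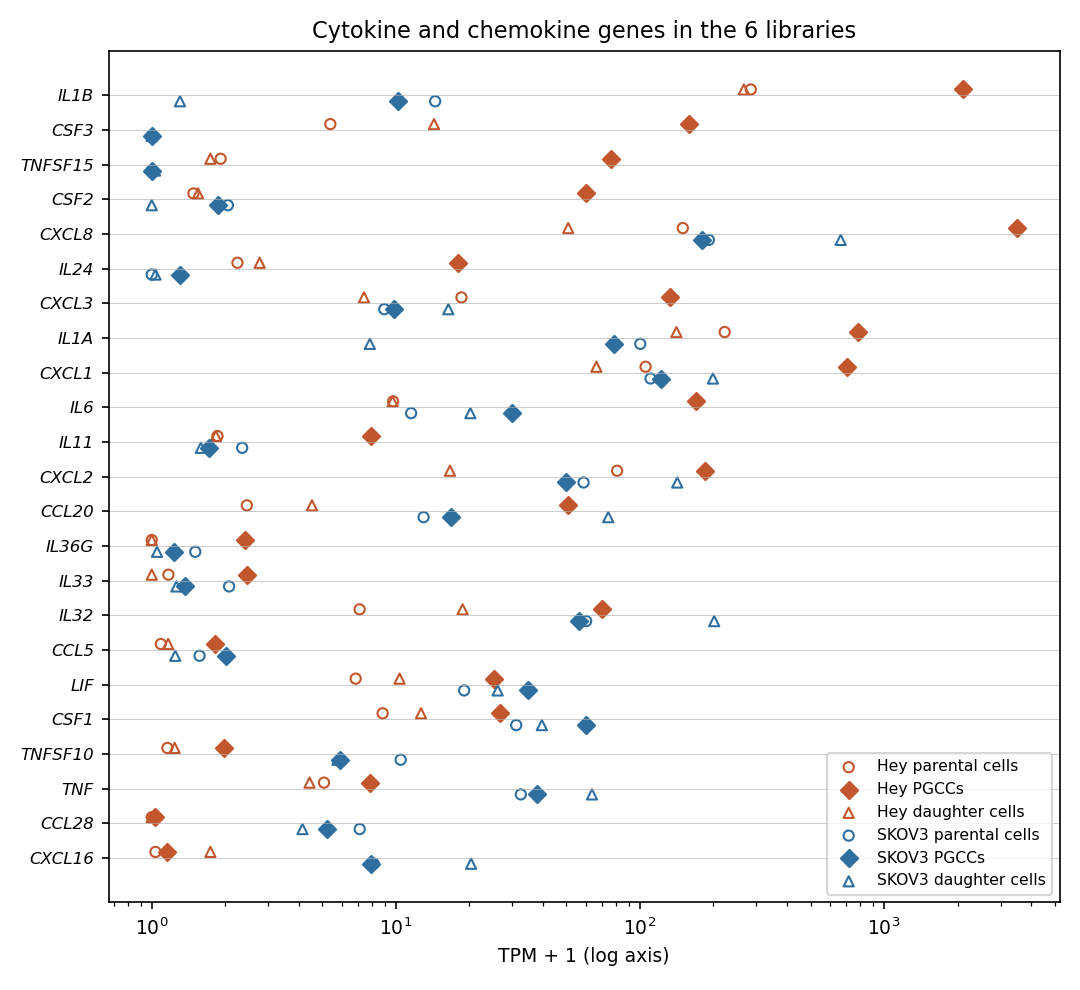
TPM + 1 on a log axis of the 23 measured cytokine and chemokine genes in the 6 libraries, with 1 marker per library, ordered by the difference in PGCCs. Filled diamonds are PGCCs, and the Hey diamonds of IL1B, CXCL8 and CXCL1 lie at 2105, 3488 and 705 TPM, to the right of the other 5 libraries.

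Subunits and feedback genes of NF-kB were higher in Hey PGCCs at 10 of 22 members and higher in SKOV3 at 2, where 15.1% and 30% of all genes were, with a median of 0.47 in PGCCs, -0.27 in parental cells and -1.74 in daughter cells. The subunits NFKB1, NFKB2, REL, RELA and RELB all differed by under 2-fold in PGCCs, at 0.32, -0.64, -0.99, -0.92 and 0.19. The members higher in Hey were mostly genes that NF-kB is known to induce, but so were BCL3 (3.54 and 17.6 TPM in Hey and SKOV3 PGCCs) and TNFAIP2 (74.1 and 317), the 2 higher in SKOV3. SOD2, the mitochondrial superoxide dismutase, was at 37.97 and 500.3 TPM in parental cells and PGCCs of Hey and at 75.3 and 165 in SKOV3, and BIRC3, an inhibitor of apoptosis, at 23.3 and 90.9 against 28.3 and 15.7. ICAM1, an adhesion receptor for leukocytes, was at 12.3, 123 and 2.32 TPM in Hey and 0.282, 2.49 and 26.97 TPM in SKOV3 in the order parental cells, PGCCs and daughter cells. The inhibitors NFKBIE and TNFAIP3 turned over, from -1.06 and -1.13 in parental cells to 1.39 and 1.00 in PGCCs, and NFKBIA, the main cytoplasmic inhibitor, was at 87.7 and 68.5 TPM.

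In daughter cells 15 of the 22 NF-kB genes were at least 2-fold higher in SKOV3 and 2 in Hey, where 27.2% and 11.6% of all genes were, with differences of -3.33 for BIRC3, -3.07 for ICAM1 and -2.61 for NFKBIA. The line with the higher level in PGCCs was therefore the line with the lower level in daughter cells for CXCL8, CXCL1, CCL20, SOD2, BIRC3 and ICAM1. This did not hold for all genes higher in Hey PGCCs. IL1B, IL1A, CSF3 and IL24 were also higher in Hey daughter cells, with differences of 7.67, 4.17, 3.84 and 1.42. So was TNIP3 of the NF-kB list, at 2.23. CCL2, a monocyte chemokine outside the comparison because it was under 1 TPM in both PGCC libraries, was at 591 TPM in SKOV3 daughter cells and under 1 TPM in the other 5 libraries. Receptors of cytokines and genes of STAT3 signalling were higher in Hey PGCCs at 5 of 20 and in SKOV3 at 6, where 15.1% and 30% of all genes were. IL7R, the interleukin 7 receptor, was at 3.92 and 36.9 TPM in parental cells and PGCCs of Hey and at 0.021 and 0.061 in SKOV3, and STAT3 itself was higher in SKOV3 PGCCs, at 110.2 against 44.7 TPM.

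Outside the cytokines, SERPINB2, an inhibitor of urokinase, stood at 1.32 TPM in the parental, 402 in the PGCC and 1.46 in the daughter library of Hey, and at 0.542, 2.61 and 2.28 TPM in the same order in SKOV3. SUGCT, a mitochondrial transferase, was at 5.10, 97.97 and 104 TPM in Hey and at 3.68, 1.77 and 1.77 in SKOV3. It was among the few named differences that appeared in PGCCs and were still large in daughter cells. IL1RL1, the receptor of interleukin 33, was at 11.9 TPM in Hey PGCCs and under 1 TPM in the other 5 libraries. MMP3, a matrix protease, was at 35.3 TPM in Hey PGCCs and 0.555 in SKOV3 PGCCs and also under 1 TPM in the other 4. MMP1, the interstitial collagenase, differed by -7.16 in parental cells and by -0.21 in PGCCs, and went from 1.41 to 98.1 TPM in Hey and from 344 to 114 in SKOV3, and its PGCC difference was 0.09 with median ratio scaling. MMP9 was at 4.04 TPM in Hey PGCCs and listed at 0 in SKOV3 PGCCs. The reads of the histone gene H2AC19 can be split with its copy H2AC18, and their summed TPM was 36.5 in Hey PGCCs and 7.59 in SKOV3 PGCCs, with 2.58 and 2.10 in parental cells.

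Changes of at least 2-fold from parental cells to PGCCs were counted only where they widened the difference. These are rises in the higher line and falls in the lower line. Genes that rose in both lines, such as IL6, therefore stand under the higher line alone. Of the 821 differences higher in Hey that appeared, 526 had such a change in Hey alone, 103 in SKOV3 alone, 9 in both and 183 in neither. Of the 1345 higher in SKOV3, 203 had such a change in Hey alone, 670 in SKOV3 alone, 52 in both and 420 in neither. In the higher line the median change was 1.19 for the former and 1.05 for the latter. The classes also differed in kind. Protein-coding genes made up 48.4% of the differences higher in Hey that appeared and 83.3% of those higher in SKOV3, symbols without a match in the annotation 26.9% and 8.996%, and genes listed at 0 in both parental libraries 24.5% and 8.77%. The median GC content was 43.6% and 59.3%.

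GC content moved with the PGCC difference. Over the 14304 genes with a known GC content, the Spearman correlation of the line difference with GC content was -0.359 in PGCCs, 0.0589 in parental cells and -0.0040 in daughter cells. The change from parental cells to PGCCs correlated with GC content at 0.715 in SKOV3 and at -0.0475 in Hey. The median PGCC difference went from 0.32 below 40% GC to -1.13 at 60% and above, where the parental medians were -0.28 and -0.10. Differences higher in SKOV3 that appeared made up 0.738% of the genes in the lowest bin and 27.7% in the highest. With a smooth (lowess) trend in GC content and length taken out of each difference, 508 differences higher in Hey and 509 higher in SKOV3 appeared, against 600 and 1224 of the same genes with the trend kept. Its part in each result was not tested beyond these values.

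**Figure D3:**
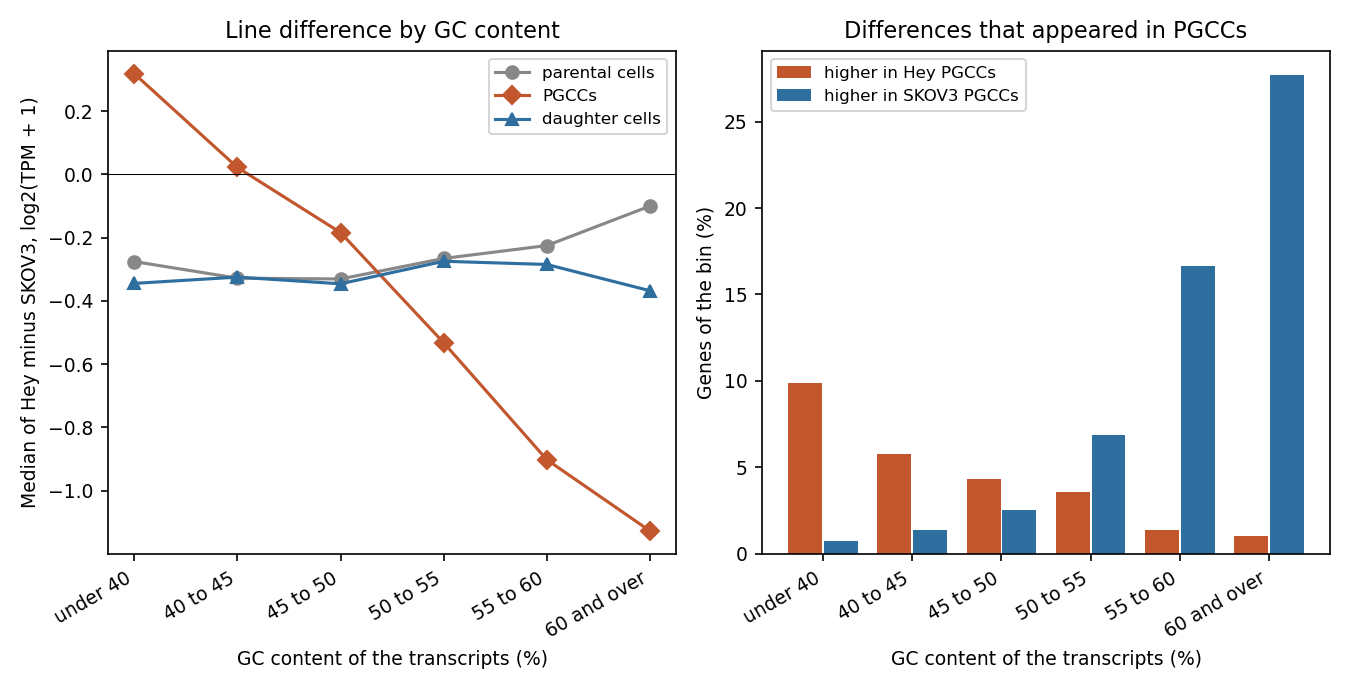
Left, median difference of log2(TPM + 1), Hey minus SKOV3, by GC content of the transcripts in parental cells, PGCCs and daughter cells. Right, percent of the genes of each bin whose difference appeared in PGCCs, by the higher line, with 27.7% higher in SKOV3 at 60% GC and above and 1.05% higher in Hey.

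The named genes whose higher level in SKOV3 appeared in PGCCs follow. NOL12 (chr22:37681673-37693476), a nucleolar RNA-binding protein, stood at 18.5 TPM in the parental, 0.368 in the PGCC and 16.6 in the daughter library of Hey, and at 19.4, 32.8 and 8.62 TPM in the same order in SKOV3. CDT1, which licenses origins of replication, was at 9.36 and 1.44 TPM in parental cells and PGCCs of Hey and at 6.57 and 16.8 in SKOV3, DDX54, an RNA helicase, at 38.9 and 11.9 against 31.97 and 103, and KIFC1, a mitotic motor that clusters centrosomes, at 60.6 and 7.44 against 72.98 and 86.2. FOS, a subunit of AP-1, was at 52.5 and 11.1 in Hey and 65.4 and 141 in SKOV3, and PNPLA6, a lysophospholipase, at 23.7 and 8.53 against 19.8 and 66.9. With the GC trend removed, their differences were -3.93, -1.96, -2.14, -2.87, -2.83 and -1.94, all still over 2-fold.

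For 2 further genes the value is uncertain because reads can be split with a near-identical copy. U2AF1, a splicing factor, was at 2.86 TPM in Hey PGCCs and 77.8 in SKOV3 PGCCs, but summed with its copy U2AF1L5 it was at 116 and 242 TPM, a difference of -1.06 in place of -4.35. SMIM11B was at 0 and 25.9 TPM and SMIM11A, its copy, at 18.1 and 3.92, so they moved in opposite directions, and their sum differed by -0.69 in PGCCs and -1.62 in parental cells. Among the genes that turned over, TXNIP, an inhibitor of thioredoxin, was at 14.1, 208 and 42.3 TPM in Hey and 209, 83.6 and 14.2 TPM in SKOV3 in the order parental cells, PGCCs and daughter cells. PI3, the elastase inhibitor elafin, was at 24.7 TPM in Hey PGCCs, listed at 0 in the other Hey libraries, and at 5.71 and 5.63 in SKOV3 parental cells and PGCCs. In the other direction UMPS, an enzyme of pyrimidine synthesis, went from 15.3 to 3.87 TPM in Hey and from 3.10 to 19.4 in SKOV3, and RNPEPL1, a peptidase, from 17.8 to 5.28 and from 7.19 to 37.6.

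Genes of the cell cycle were lower in Hey PGCCs than in SKOV3 PGCCs. Of 43 S-phase genes 31 were at least 2-fold higher in SKOV3 PGCCs and 0 in Hey, and of 54 G2/M genes 44 and 0, where 30% and 15.1% of all genes were, and every member had a difference below 0. The medians were -1.79 and -1.72 in PGCCs, -0.79 and -0.84 in parental cells, and -0.13 and 0.10 in daughter cells. In parental cells 14 and 18 members were at least 2-fold higher in SKOV3, where 23.2% of all genes were, and 0 in Hey. In daughter cells 4 and 5 were higher in SKOV3, where 27.2% of all genes were. There 4 and 8 were higher in Hey, where 11.6% of all genes were. Of the S-phase genes 12 were present, 12 appeared and 7 crossed the threshold, and of the G2/M genes 18, 17 and 9. From parental cells to PGCCs 36 of 43 and 46 of 54 fell at least 2-fold in Hey, where 4.69% of all genes did, and 12 and 19 fell in SKOV3, where 4.29% did.

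MKI67, the proliferation marker Ki-67, stood at 60.5 TPM in the parental, 9.79 in the PGCC and 108 in the daughter library of Hey, and at 122, 104 and 102 TPM in the same order in SKOV3. CDC20, which starts the exit from mitosis, was at 127 and 31.7 TPM in parental cells and PGCCs of Hey and at 329 and 476 in SKOV3, and AURKB, a kinase of the chromosomal passenger complex, at 47.99 and 5.70 against 56.1 and 58.6. Of the genes of replication, MCM7, a subunit of the replicative helicase, was at 87.7 and 20.1 in Hey and 79.8 and 101 in SKOV3, and UHRF1, which maintains DNA methylation, at 19.03 and 3.39 against 32.5 and 32.4. In these 5 genes the SKOV3 PGCC values were within 2-fold of the parental ones, while the Hey PGCC values were below those of Hey parental and daughter cells, but other members fell in both lines. TOP2A, the topoisomerase that untangles chromosomes, was at 229 and 37.2 TPM in Hey and 604 and 177 in SKOV3, and CDK1, the kinase that drives entry into mitosis, at 151 and 47.2 against 279 and 75.6. With the GC trend removed the counts higher in SKOV3 were 34 and 49. The SKOV3 PGCC library is the one whose title differs from its treatment label in recovery time, and the part of recovery time was not tested.

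**Figure D4:**
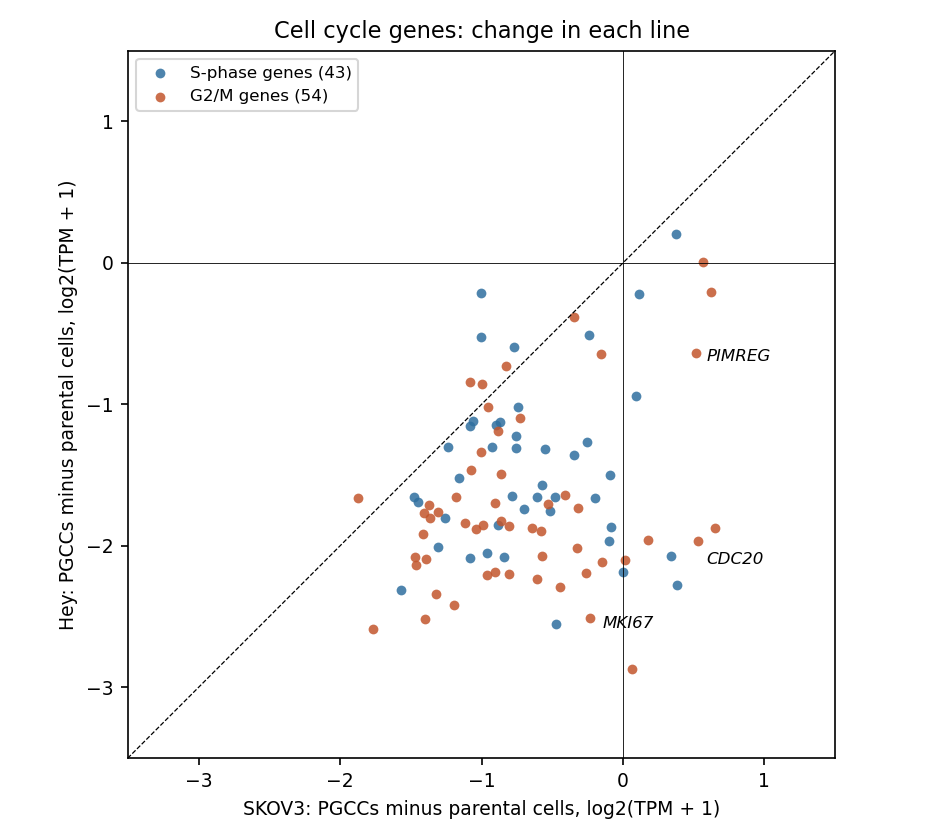
Change of log2(TPM + 1) from parental cells to PGCCs in SKOV3 (horizontal) and in Hey (vertical) of 43 S-phase and 54 G2/M genes, with 1 point per gene and a dashed line of equal change. Below the line, with the lower change in Hey, lie 40 and 50 of them, and the medians are -1.57 and -1.86 in Hey and -0.76 and -0.86 in SKOV3.

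Genes of cholesterol and fatty acid synthesis differed in both directions between the parental lines and were mostly higher in SKOV3 PGCCs. In parental cells 5 were at least 2-fold higher in Hey and 4 in SKOV3, where 10.9% and 23.2% of all genes were. Of 26 members 16 were at least 2-fold higher in SKOV3 PGCCs and 2 in Hey, where 30% and 15.1% of all genes were, with medians of -1.17 in PGCCs, -0.23 in parental cells and -1.16 in daughter cells. Among the 16, 9 appeared, 3 were present, 2 crossed the threshold and 2 turned over. LSS, which closes the sterol ring, was at 8.51 and 5.69 TPM in parental cells and PGCCs of Hey and at 10.4 and 37.2 in SKOV3, and FASN, the fatty acid synthase, at 14.8 and 7.61 against 8.92 and 38.3. SCD, the stearoyl-CoA desaturase, turned over, from 149 to 26.5 in Hey and from 47.6 to 58.9 in SKOV3, as did SREBF2, the main activator of the pathway, from 1.17 to -1.21. SQLE, the squalene epoxidase, differed by 0.44, so the members did not move alike. With the GC trend removed 13 were higher in SKOV3 and 2 in Hey, and SREBF2 and FASN were at -0.61 and -1.31.

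Glycolysis and hypoxia genes were higher in SKOV3 PGCCs at 9 of 26 members and in Hey at 4, near the 30% and 15.1% of all genes, with a median of -0.61 that became -0.03 with the trend removed. SLC2A1, the main glucose transporter, turned over, at 22.7, 12.4 and 9.36 TPM in Hey and 7.98, 48.9 and 3.74 TPM in SKOV3 in the order parental cells, PGCCs and daughter cells, while SLC2A3, a transporter of higher affinity, was at 52.5 TPM in Hey PGCCs and 0 in SKOV3 PGCCs. LDHA, lactate dehydrogenase A, was higher in SKOV3, with differences of -2.20 in PGCCs and -1.94 in parental cells. PFKL, the liver type of phosphofructokinase, was at 9.54 and 61.01 TPM in Hey and SKOV3 PGCCs and ALDOC, an aldolase, at 0.364 and 12.3. VEGFA, the vascular growth factor, was at 43.2 TPM in Hey PGCCs and 90.3 in SKOV3 PGCCs and its difference of -1.05 was under 2-fold with the trend removed, at -0.70, and under the median ratio and quantile scalings. GAPDH, often used as a reference gene, differed by 1.26 in parental cells and 0.32 in PGCCs, or -0.19 with quantile normalization.

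Tubulins, the proteins that paclitaxel binds in microtubules, were higher in SKOV3 PGCCs at 8 of 15 members and in Hey at 1, where 30% and 15.1% of all genes were, with a median of -1.26 in PGCCs and -1.35 in parental cells. TUBB3, the neuronal beta-tubulin associated with taxane resistance, was at 4.74 and 17.98 TPM in parental cells and PGCCs of Hey and at 42.8 and 87.8 in SKOV3, and TUBA4A at 18.00 and 242 in PGCCs. ABC transporters, which pump drugs and lipids across membranes, were higher in SKOV3 PGCCs at 9 of 26 and in Hey at 2, of which the former is near the 30% of all genes and the latter under the 15.1%. ABCB1, the pump that exports paclitaxel, stood at 0.195 TPM in the parental, 1.60 in the PGCC and 43.3 in the daughter library of Hey, and at 0.329, 0.168 and 231 TPM in the same order in SKOV3. It was thus low in both PGCC libraries and high in both daughter libraries, more so in SKOV3. In the BCL2 family 6 of 18 were higher in Hey PGCCs and 3 in SKOV3, beside 15.1% and 30% of all genes, and BCL2A1, a survival gene induced by NF-kB, was at 131 TPM in Hey PGCCs and 0.160 in SKOV3 PGCCs.

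**Figure D5:**
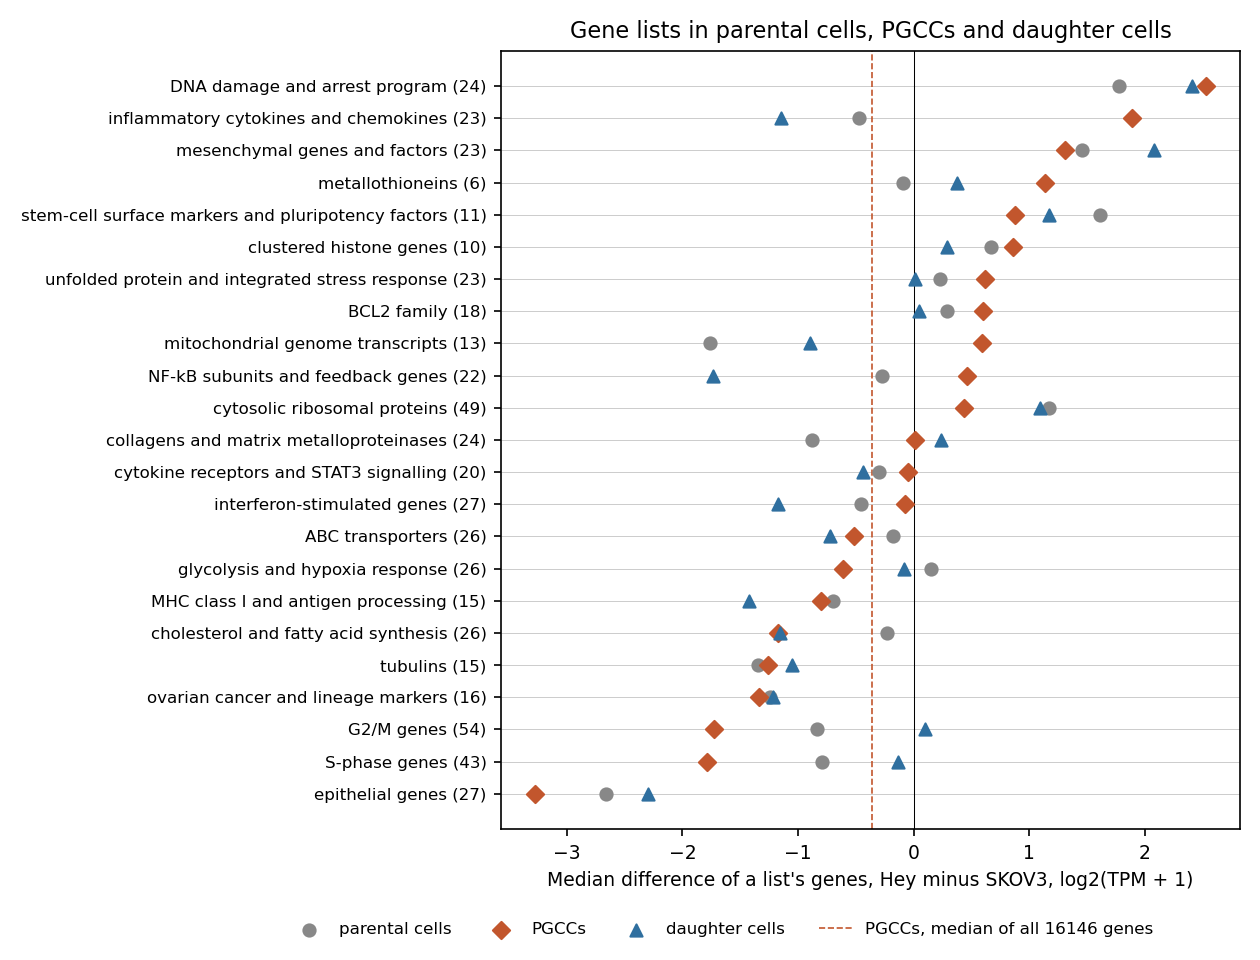
Median difference of log2(TPM + 1), Hey minus SKOV3, of the measured members of 23 gene lists (number in brackets) in each of the 3 states, and a dashed line for all 16146 genes in PGCCs (-0.36). Cytokines stand at 1.89 in PGCCs, -0.47 in parental cells and -1.15 in daughter cells, while DNA damage and arrest genes stand at 1.78 to 2.53 and epithelial genes at -3.28 to -2.30 in the 3 states.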

How the data were processed

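RNA sequencing of 6 libraries was analysed from the TPM values the authors deposited, with 1 value per gene symbol and library. The authors cleaned reads with fastp (version not given in the sources used here) and quantified them on the human transcriptome (hg38) with salmon 0.14.1. The annotation release, any bias correction and the way transcripts were summed to symbols are not given in the sources used here. TPM values carry no read counts, so depth per gene and counting error are unknown and count tests were not used.

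Genes reaching 1 TPM in either PGCC library were kept, and differences of log2(TPM + 1) were called at 1 (2-fold). Gene types, positions, GC content and median transcript length came from GENCODE release 44 on GRCh38, joined by symbol or RefSeq synonym. Alternatives were a pseudocount of 0.1, a TPM minimum of 5 or none, median ratio scaling, quantile normalization, mitochondrial genes left out, 1.5-fold and 3-fold thresholds, protein-coding genes alone, and removal of a lowess trend in GC content and length (fraction 0.3, 2 passes). A set of genes with known GC content and the trend kept was added after seeing the data.

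Named genes were, per class, the 8 protein-coding genes with at least 10 TPM in the higher PGCC library and the largest difference or move, 6 that turned over, 4 per list plus members that disagree, and genes named by the study. Further list members, such as CCL2, MKI67, SOD2, CXCL2, BTG2 and the markers of other cell types, were named after their values were seen. Some genes of the lists are not reported here. The 43 S-phase and 54 G2/M genes came from Seurat 5.3.0. Members and lists were chosen with earlier results of these data known. The work ran in Python 3.11.15 with statsmodels 0.14.6, pandas 2.3.3 and numpy 2.4.6, and steps were tested on simulated data.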

Additional observations from a re-analysis of the deposited data

Results flagged for a closer look

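Of the named genes and the members of the lists, 19 changed at least 2-fold from parental cells to PGCCs in both lines but in opposite directions. Some of them, such as CDT1, FOS, TXNIP and UMPS, had been named because their difference moved far or turned over. Their place among the 19 is thus in part set by that choice. The share of all genes with such opposite changes was not counted. With 1 library per condition the difference between the lines was not tested. Over all genes the change in SKOV3 correlated with GC content at 0.715 (Spearman). Its median went from -0.59 below 40% GC to 0.90 at 60% and above. The part of this trend in the opposite changes was not tested. Values are the change in Hey minus the change in SKOV3, in log2(TPM + 1).

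The gap was toward Hey for MMP1 (6.95), which went up by 5.36 in Hey and changed by -1.59 in SKOV3, for TXNIP (5.11, changes of 3.79 and -1.32), for MT1X, a metallothionein that binds metal ions (2.66, changes of 1.63 and -1.04), for IFI44, an interferon-stimulated gene (2.49), and for MMP2, a gelatinase (2.47). It was toward SKOV3 for CCN1, a matrix protein (-5.53, changes of -2.11 and 3.42), SMIM11B (-5.05), whose reads can be split with SMIM11A, UMPS (-4.05), RNPEPL1 (-3.82), CDT1 (-3.32), DDX54 (-3.28), FOS (-3.25), PNPLA6 (-3.08), ABCD4, a lysosomal transporter (-2.94), RPL8, a ribosomal protein (-2.93), PFKL (-2.43), the histone gene H4C8 (-2.39), SREBF2 (-2.38, changes of -1.08 and 1.30) and AXL, a receptor tyrosine kinase (-2.16).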

How the results depend on the processing

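No paired analysis was possible because each condition has 1 library and no test was made. Of 132 counts and shares recomputed, 93 stayed within 1.5 times the main count, or for a share inside its 95% Wilson interval, and 39 moved. At 1.5-fold, genes higher in Hey PGCCs numbered 3779, present differences 1804 (Hey) and 4252 (SKOV3), those that appeared in Hey 1372 and those that turned over 587. At 3-fold, 1264 genes were higher in Hey PGCCs and 2539 in SKOV3 PGCCs, 630 and 1188 differences were present, 309 and 468 appeared, 35 turned over and 944 were lost. Among protein-coding genes 1598 were higher in Hey PGCCs, 397 of these differences appeared, and 56 turned over. At 5 TPM 441 differences higher in Hey appeared. With the GC and length trend removed, 508 higher in Hey and 509 higher in SKOV3 appeared and 64 turned over, and with the pseudocount of 0.1 326 turned over. The share of differences that appeared and were higher in Hey was 37.9%, and 47.1% with median ratio scaling, 49.1% with quantile normalization, 47.7% without mitochondrial genes, 49.95% with the trend removed and 26.2% among protein-coding genes.

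The share of present differences found again in daughter cells was, for Hey, 70.3% at 5 TPM and 69.2% with quantile normalization, and for SKOV3 74.9% with the pseudocount, 66.7% and 64.1% with the median ratio and quantile scalings and 73.9% at 1.5-fold. For those that appeared it was, for Hey, 21.1% with the pseudocount, 19.7% at 5 TPM, 21.9% with quantile normalization, 23.5% at 1.5-fold and 13.9% at 3-fold. For SKOV3 it was 27.7% with the pseudocount, 18.2% and 17.9% with the median ratio and quantile scalings, 27.4% without mitochondrial genes, 36.7% at 1.5-fold, 14.5% at 3-fold and 27.7% with the trend removed. In each alternative run the share was larger for present differences than for those that appeared. No named or list gene and no list median at or over 2-fold changed sign in these alternatives. Among the genes given with values, those under 2-fold with the trend removed included VEGFA (-0.70), CCL20 (0.97), ABCB1 (0.93), CSF1 (-0.49), KRT7 (-0.86), KRT8 (-0.92), PAX8 (-0.67), SREBF2 (-0.61) and MT-CO1 (0.90). List medians under 2-fold were those of the cholesterol list, the tubulins and the ovarian markers (-0.96, -0.60 and -0.96) with the trend removed, of the first and second with median ratio scaling, of the first with quantile normalization, and of the cytokines (0.87), mesenchymal genes (0.56) and tubulins (-0.82) with no filter on TPM. The cause of these moves was not tested. TPM without read counts leaves the precision of weakly expressed genes unknown.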

Other observations

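Transcripts of the mitochondrial genome and of ribosomal proteins moved between the states. All 13 mitochondrial messages went up at least 2-fold from parental cells to PGCCs in Hey and 0 did in SKOV3. Of all genes 9.41% and 10.5% did. The median of the 13 went from -1.76 in parental cells to 0.60 in PGCCs, and 10 of the 11 parental differences were lost. MT-CO1, a subunit of cytochrome oxidase, was at 2366 and 15349.8 TPM in parental cells and PGCCs of Hey and at 8019 and 7475 in SKOV3. Of 49 cytosolic ribosomal protein genes 33 were higher in Hey parental cells and 31 in Hey daughter cells, where 10.9% and 11.6% of all genes were. In Hey PGCCs 7 were higher, near the 15.1% of all genes. Their median was 0.44 in PGCCs and 1.17 in parental cells, and 29 of the parental differences were lost. RPL4 moved farthest, from 3884 to 762 TPM in Hey and from 862 to 1495 in SKOV3.

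Of all genes 30% were higher in SKOV3 PGCCs and 15.1% in Hey PGCCs, and the counts of the lists that follow stand beside these shares. Class I antigen presentation was higher in SKOV3 PGCCs at 7 of 15 genes and in Hey at 1. HLA-F was at 0.814 TPM in Hey PGCCs and 62.7 in SKOV3 PGCCs, while B2M, the shared light chain, was the exception at 1184 and 419.6, with 973 and 1263 in parental cells. Interferon-stimulated genes were higher in Hey PGCCs at 6 of 27 and in SKOV3 at 6, and 18 were higher in SKOV3 daughter cells and 0 in Hey, where 27.2% and 11.6% of all genes were. BST2, which tethers viruses, was at 0.105 TPM in Hey PGCCs and 108 in SKOV3 PGCCs. Collagens and matrix metalloproteinases were higher in Hey PGCCs at 11 of 24 and in SKOV3 at 9, with COL18A1 at 1.33 and 135 TPM and MMP7 at 0.137 and 99.7. Stem-cell markers were higher in Hey PGCCs at 5 of 11 and in SKOV3 at 4, with ALDH1A3 at 387 and 8.76 TPM, CD44 at 765 and 179 and CD24 at 12.7 and 355. NANOG and SOX2 were under 1 TPM in all 6 libraries. POU5F1, which encodes OCT4, was at 0.116, 0.181 and 0.029 TPM in Hey parental cells, PGCCs and daughter cells. In SKOV3 it was at 2.86, 8.13 and 7.22 TPM in the same order. Genes of the unfolded protein and integrated stress response were higher in Hey PGCCs at 6 of 23 and in SKOV3 at 3, with ASNS, asparagine synthetase, at 179.7 and 27.8 TPM. Metallothioneins were higher in Hey PGCCs at 4 of 6, MT1E being at 115 TPM in Hey PGCCs and listed at 0 in the 3 SKOV3 libraries. Clustered histone genes were higher in Hey at 5 of 10 and in SKOV3 at 1.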
